A study of Mus musculus with 6 samples.

Results

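The 37 genes described here encode enzymes that make, recycle, convert or clear nucleotides. They were taken by symbol from a list of names, and all 37 had a row among the 23940 gene symbols of the deposited table. Of them, 17 act on purines, 6 on pyrimidines and 12 on deoxynucleotides, and 2 are nucleoside diphosphate kinases that serve all nucleotides. RNA came from CD45-negative cells sorted out of 6 YUMM1.7 melanomas grown in C57BL/6 mice. The libraries were of 2 kinds, 3 from residual tumours on a BRAF inhibitor (on-BRAFi) and 3 from tumours before treatment (pre-treatment). YUMM1.7 is a single mouse melanoma line with an activating Braf mutation and loss of tumour suppressors including Cdkn2a, and both groups share this background. CD45 is the surface protein of leukocytes, so the sort leaves tumour cells mixed with stroma such as fibroblasts and endothelium. The inhibitor, its dose, the days on treatment and the age and sex of the mice are not stated in any source used.

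Purine bases are built step by step on phosphoribosyl pyrophosphate (PRPP) until inosine monophosphate (IMP) is reached, and IMP is then turned into AMP or GMP. Pyrimidines are built first as a ring, which is joined to PRPP to give UMP, and CTP is made from UTP. Ribonucleotide reductase turns ribonucleotides into the deoxynucleotides that DNA replication consumes, thymidylate is made from dUMP, and salvage enzymes return free bases and nucleosides to the pools. Several of the enzymes of deoxynucleotide supply are known to be made mainly in dividing cells, whereas others, among them the mitochondrial kinases, are also made in resting cells.

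Values are FPKM, a fragment count divided by transcript length and by library size, 1 value per gene and tumour. Totals over all genes ran from 414834 to 554684 FPKM in the on-BRAFi libraries and from 562041 to 921297 FPKM in the pre-treatment libraries. Spearman correlations over tested genes were 0.840 to 0.892 within groups and 0.694 to 0.798 between groups. Of 8 melanocyte markers, Tyrp1, Dct and Mlana were listed at 0 in every library, Sox10, Pmel and Slc45a2 stayed under 1 FPKM, and Mitf and Tyr were detected, Mitf having risen, so most defining markers of the labelled tissue were absent or near 0. The 8 summed to 25.7 to 28.3 FPKM on the inhibitor, against 8.23 to 12.5 FPKM before treatment. The 12 fibroblast markers summed to between 16749 and 18045 FPKM on the inhibitor, against 1509 to 2104 FPKM before treatment, and 7 rose. Of 13 leukocyte markers in the table, 4 were tested and none passed, and Ptprc, which encodes CD45, was at 0.118 to 1.10 FPKM on the inhibitor and 0.609 to 2.18 FPKM before treatment. Keratinocyte markers summed to at most 0.478 FPKM on the inhibitor and 0.607 FPKM before treatment. Erythroid markers ranged from 20.7 to 1213 FPKM on the inhibitor and from 20.5 to 52.6 FPKM before treatment.

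Enzymes of deoxynucleotide supply and the diphosphate kinases made up 10 of the 15 members that fell, and 1 of the 6 pyrimidine members fell. Differences are log2 fold changes of FPKM + 0.1, on-BRAFi over pre-treatment, tested with limma across the 12075 genes with a mean of at least 1 FPKM, and a gene passed at a Benjamini-Hochberg adjusted p under 0.05. A gene that did not pass is not shown to be alike in both groups. All 37 members were tested. Of these, 15 fell, 1 rose and 21 did not pass, while 10.3% of all tested genes fell and 8.76% rose. In bulk RNA, fewer cells of a type and less RNA per cell cannot be told apart, which holds for every value below. The 15 were 4 purine, 1 pyrimidine and 8 deoxynucleotide members and both diphosphate kinases, and the 1 that rose was the purine member Pnp. The values of the 3 tumours of one group all lay beyond those of the other for 25 members, 22 lower and 3 higher. Of all 12075 tested genes this held for 40.4%, 2355 lower and 2529 higher. The median log2 fold change was -1.71 over deoxynucleotide members, -0.65 over purine members, -0.41 over pyrimidine members and -1.84 over the diphosphate kinases, against -0.0063 over all tested genes. Uck2, Dck and Adssl1 averaged under 1 FPKM on the inhibitor and were tested only because of their pre-treatment values, so their place among the tested genes is tied to the difference. The same holds for Bub1, Plk1, Aurkb, E2f8 and Ak4, which passed on the lists below. Pnp2, Nt5e, Tek, Tagln and Notch3 also passed, averaged under 1 FPKM before treatment and were tested only because of their on-BRAFi values.

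**Figure D1:**
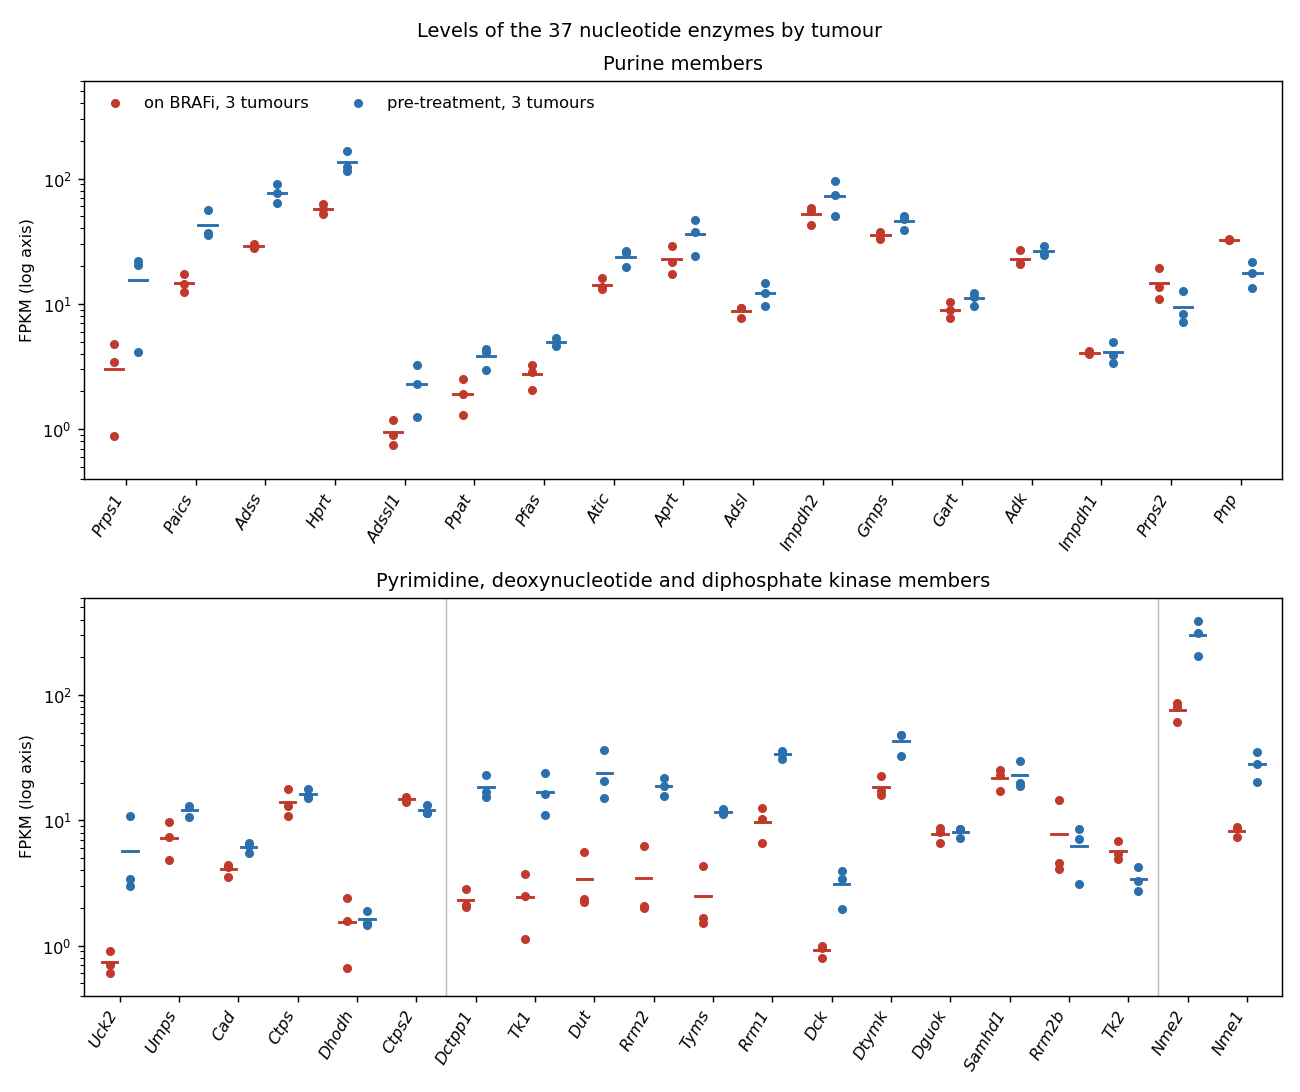
FPKM of each member in each tumour (log axis), with the 3 on-BRAFi tumours in red left of the 3 pre-treatment tumours in blue, and a bar at each group's mean. Members are ordered by fold change within each step, with grey lines between steps. Dctpp1, Tk1, Dut, Rrm2 and Tyms show a wide gap between groups, whereas Impdh1, Adk, Dguok and Samhd1 overlap.

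The scale between libraries decides part of these counts. Under median of ratios scaling and under quantile normalization 15 members fell and 1 rose, as in the deposited values. The counts moved with equal totals. When libraries were set to an equal total, the median over tested genes shifted up by 0.53, and by 0.58 when short RNA genes were kept out of the total. Of all tested genes, 2009 then rose and 518 fell, or 3791 rose and 680 fell without short RNA genes, against 1058 and 1249 in the deposited values. With the same total, 9 members fell, among them 6 deoxynucleotide and no purine members, and without short RNA genes 12 fell and 4 rose. Over the deoxynucleotide members the median was then -1.18 or -1.13, whereas that over pyrimidine members turned to 0.13 or 0.18. Such scaling adds nearly the same amount to every log2 fold change, so it moves all members up together. Without on-BRAFi replicate 1, 8 members fell, and 11 to 13 fell when any other single library was left out.

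**Figure D2:**
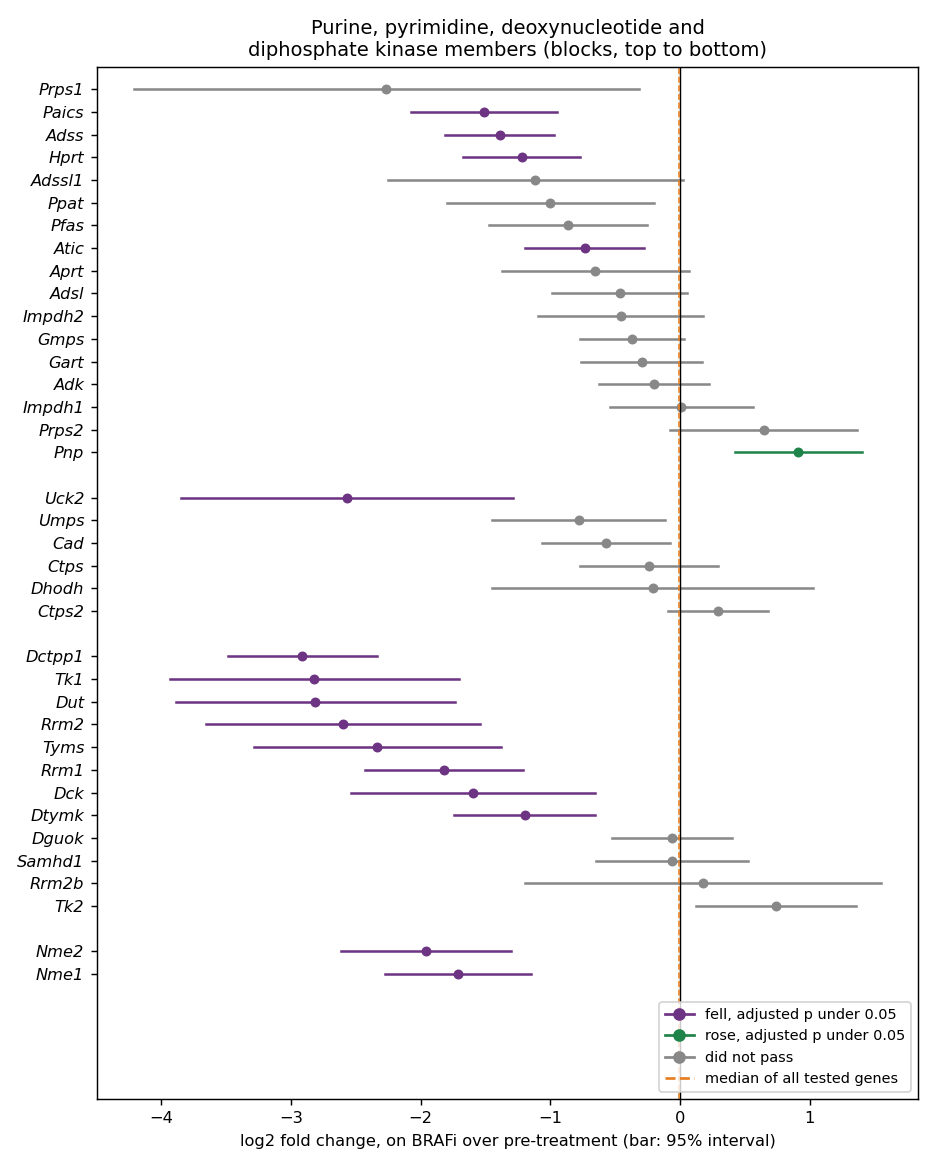
Log2 fold change of each member, on-BRAFi over pre-treatment, with its 95% interval from limma, in blocks for purine, pyrimidine, deoxynucleotide and diphosphate kinase members. Purple marks members that fell, green the member that rose, and grey those that did not pass. Of the 12 deoxynucleotide members, 8 lie at -1.20 or below and the other 4 between -0.064 and 0.74.

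PRPP synthetase makes the sugar phosphate that both pathways build on, and neither of its genes passed. Prps1 was at 3.44, 0.881 and 4.80 FPKM on the inhibitor, against 20.3, 21.8 and 4.11 FPKM before treatment. The groups overlapped, because pre-treatment replicate 3 was as low as the on-BRAFi tumours while the other 2 pre-treatment tumours were several times higher. Its log2 fold change was -2.26 ± 0.82 (SE) with a 95% interval from -4.21 to -0.32 (limma, adjusted p = 0.102). Prps2, the isoform on the other side of this pair, was at 19.3, 13.6 and 10.98 FPKM on the inhibitor, against 7.11, 8.23 and 12.7 FPKM before treatment, with a log2 fold change of 0.65 ± 0.30 SE (limma, adjusted p = 0.185).

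Of the 6 enzymes that build IMP, Paics and Atic fell and the other 4 did not pass. Paics, which carries out the carboxylation of the ring and the step after it, was at 14.5, 12.4 and 17.2 FPKM on the inhibitor, against 55.7, 36.5 and 35.6 FPKM before treatment. Every on-BRAFi tumour lay below every pre-treatment tumour, and Paics fell 2.85-fold (log2 fold change -1.51 ± 0.24 SE; limma, adjusted p = 0.00721). Atic, which closes the second ring and yields IMP, was at 13.02, 16.1 and 13.6 FPKM on the inhibitor, against 26.6, 25.3 and 19.7 FPKM before treatment, and fell 1.67-fold (limma, adjusted p = 0.0393). The Atic call was lost without any 1 on-BRAFi library and without pre-treatment replicate 1 or 2 (limma, largest adjusted p 0.116) and under both same-total scalings.

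Ppat, the amidotransferase of the first committed step, was at 2.51, 1.30 and 1.90 FPKM on the inhibitor, against 4.14, 2.98 and 4.37 FPKM before treatment, and the groups did not overlap (log2 fold change -1.001 ± 0.34 SE; limma, adjusted p = 0.0831). Pfas, of the amidine step, was at 3.26, 2.88 and 2.05 FPKM on the inhibitor, against 4.60, 5.004 and 5.33 FPKM before treatment, and also separated the groups (log2 fold change -0.87 ± 0.26 SE; limma, adjusted p = 0.0589). Adsl, which acts both before IMP and in AMP synthesis, averaged 8.72 ± 0.924 FPKM on the inhibitor and 12.2 ± 2.57 FPKM before treatment, and Gart, which carries out 3 of the early steps, averaged 9.01 ± 1.30 FPKM on the inhibitor and 11.04 ± 1.25 FPKM before treatment (SD, n = 3 each). Neither passed, with log2 fold changes of -0.46 and -0.29, and both turned positive with the same total. Summed over the 6 genes, the pathway to IMP was at 51.4, 49.7 and 52.8 FPKM on the inhibitor, against 115, 96.7 and 84.3 FPKM before treatment. Paics alone made up most of the gap between those sums.

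Ppat and Paics lie head to head, and in the RefSeq annotation of GRCm38.p6 the Paics start site lies 276 bases downstream of that of Ppat, on the opposite strand, so that their 5′ ends overlap. The libraries carry no strand, so reads from the overlapping exons cannot be told apart. Paics and Ppat were each lower in every on-BRAFi tumour than in any pre-treatment tumour, with log2 fold changes of -1.51 and -1.001. Whether the change differs between these genes was not tested. The stretches below are shown because the pair shares 1 start region and only Paics passed. They hold the motifs found in the 250 bases before each start site, in capitals and read along each gene's own strand. Ppat has 2 E2F-like matches, at chr5:76951771-76951800 and chr5:76951718-76951747 on the minus strand. Paics has an E-box at chr5:76951088-76951115 and a CCAAT box at chr5:76951268-76951294 on the plus strand.
Ppat E2F-like, upstream: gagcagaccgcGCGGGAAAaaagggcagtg
Ppat E2F-like, downstream: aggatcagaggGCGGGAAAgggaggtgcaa
Paics E-box: gcctcggaaagCACGTGgagggacctgc
Paics CCAAT box: cccgctctccgCCAATcagctagggca

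Promoter windows from 250 bases before to 50 after the start site were found in RefSeq for 34 members (not for Pfas, Dhodh and Rrm2b). They were searched on both strands for the E2F-like motifs TTTCCCGC, TTTCGCGC, TTTGCCGC and TTTGGCGC, the E-box CACGTG and the CCAAT box CCAAT. An E-box was in the windows of 6 of the 34 members (17.6%). It was in 8.09% of all 27025 genes with a window and in 11.9% of the 8727 tested genes with a window. These members were 5 of the 15 that fell (33.3%) and 1 of the 18 that did not pass (5.56%). The counts are small and the split was not tested. Members that did not pass are no unchanged group, as 16 of all 21 had a negative log2 fold change. Binding at these motifs was not measured. An E2F-like match was in none of the 15 that fell and in 2 that did not pass, Ppat and Prps2, against 2.60% of all genes and 4.73% of the tested ones. Only exact matches inside these windows were counted, so a gene without a match is not shown to lack a binding site. The CCAAT box was in 7 of the 15 (46.7%), against 41.1% of all genes and 43.1% of the tested ones. The E-box stretches of the members that fell are printed here, chosen after the matches were seen, and besides Paics they come from Atic, Tyms, Dtymk and Nme1. They lie at chr1:71557119-71557155 (plus strand), chr5:30073651-30073716, chr1:93802047-93802112 and chr11:93968273-93968320 (minus strand) of GRCm38.p6, with the E-box in capitals. The window of another annotated Nme1 start site also held 1 E-box.
Atic: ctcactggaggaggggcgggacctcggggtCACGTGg
Tyms: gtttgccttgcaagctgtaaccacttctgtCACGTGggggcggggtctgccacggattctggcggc
Dtymk: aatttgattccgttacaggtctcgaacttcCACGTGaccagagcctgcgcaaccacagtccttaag
Nme1: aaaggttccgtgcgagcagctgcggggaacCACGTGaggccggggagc

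After IMP, Adss of the AMP arm fell, and no gene of the GMP arm passed. Adss, adenylosuccinate synthetase, commits IMP to AMP and was at 28.1, 28.9 and 29.96 FPKM on the inhibitor, against 90.1, 63.9 and 76.5 FPKM before treatment. The on-BRAFi tumours lay within a narrow range far below all pre-treatment tumours, and Adss fell 2.62-fold (log2 fold change -1.39 ± 0.18 SE; limma, adjusted p = 0.00345). Its muscle-type relative Adssl1 was low throughout, at 0.742, 0.897 and 1.19 FPKM on the inhibitor, against 3.27, 2.31 and 1.25 FPKM before treatment (log2 fold change -1.12 ± 0.48 SE; limma, adjusted p = 0.152). Impdh2, which oxidises IMP on the way to GMP, averaged 51.9 ± 8.11 FPKM on the inhibitor and 73.2 ± 22.9 FPKM before treatment (SD, n = 3 each). Its isozyme Impdh1 averaged 4.08 ± 0.121 FPKM on the inhibitor and 4.10 ± 0.801 FPKM before treatment (SD, n = 3 each), and the groups overlapped for both genes. Their log2 fold changes were -0.46 and 0.01, with 95% intervals from -1.09 to 0.18 and from -0.54 to 0.56. Gmps, GMP synthetase, was at 37.5, 35.4 and 32.95 FPKM on the inhibitor, against 38.9, 50.6 and 47.9 FPKM before treatment; all 3 on-BRAFi tumours were lower, but by a small margin (log2 fold change -0.37 ± 0.17 SE; limma, adjusted p = 0.176). Adss missed the threshold with the same total in each library (limma, adjusted p = 0.0556), as did Paics (0.0517) and Hprt (0.0910), and under that scaling Gmps and Impdh2 turned positive. The overlap of Impdh2 exons with Ndufaf3 on the other strand cannot be resolved without strand; Ndufaf3 itself averaged 2.94 ± 0.569 FPKM on the inhibitor and 2.87 ± 0.478 FPKM before treatment.

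Among the purine salvage enzymes, 1 fell, 1 rose and 2 did not pass. Hprt, which returns hypoxanthine and guanine to IMP and GMP, was at 52.1, 56.7 and 63.1 FPKM on the inhibitor, against 164.6, 115.7 and 124.2 FPKM before treatment. It was the most abundant of the purine members in the pre-treatment tumours and fell 2.33-fold with no overlap (log2 fold change -1.22 ± 0.19 SE; limma, adjusted p = 0.00695). Pnp, purine nucleoside phosphorylase, which splits purine nucleosides into free base and sugar phosphate, was at 32.2, 32.9 and 32.2 FPKM on the inhibitor, against 13.5, 17.5 and 21.5 FPKM before treatment. It was higher in each on-BRAFi tumour than in any pre-treatment tumour and rose 1.88-fold (log2 fold change 0.91 ± 0.21 SE; limma, adjusted p = 0.0245). The Pnp call was lost without any 1 on-BRAFi library or pre-treatment replicate 2 (limma, largest adjusted p 0.0804). Its near-identical tandem copy Pnp2 was at 3.44, 5.33 and 4.30 FPKM on the inhibitor, against 0, 0.385 and 0.559 FPKM before treatment. Pnp2 also rose (limma, adjusted p = 0.0182). Its call was lost without any 1 on-BRAFi library (limma, adjusted p up to 0.0674) and with a pseudocount of 0.01. How reads were split between the copies is not given in the sources used here, so both are uncertain. Aprt, for adenine, was at 17.3, 29.1 and 21.5 FPKM on the inhibitor, against 46.7, 37.2 and 24.2 FPKM before treatment, and Adk, adenosine kinase, was at 21.3, 20.7 and 26.9 FPKM on the inhibitor, against 24.4, 28.7 and 25.6 FPKM before treatment. Neither passed (limma, adjusted p = 0.180 for Aprt and 0.464 for Adk), and in both the groups overlapped.

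None of the enzymes that build pyrimidines passed, where 10.3% of all tested genes fell and 8.76% rose. Cad, the protein that carries the first 3 activities of the pathway, was at 3.50, 4.42 and 4.27 FPKM on the inhibitor, against 5.47, 6.54 and 6.20 FPKM before treatment. Umps, which makes UMP, was at 9.68, 7.32 and 4.80 FPKM on the inhibitor, against 12.7, 13.05 and 10.7 FPKM before treatment. Every on-BRAFi value of both lay below every pre-treatment value, with log2 fold changes of -0.57 and -0.78, but neither passed (limma, adjusted p = 0.104 and 0.0999). Dhodh, the mitochondrial dehydrogenase between them, was low, at 2.41, 1.59 and 0.661 FPKM on the inhibitor, against 1.51, 1.45 and 1.90 FPKM before treatment, with overlapping groups and an interval from -1.45 to 1.03. Of the CTP synthetases, Ctps averaged 13.9 ± 3.56 FPKM on the inhibitor and 16.2 ± 1.42 FPKM before treatment, with overlapping groups, and Ctps2 was at 15.3, 14.1 and 14.99 FPKM on the inhibitor, against 11.5, 13.2 and 11.5 FPKM before treatment (SD, n = 3 each for the means). Ctps2 was slightly higher in all 3 on-BRAFi tumours (log2 fold change 0.29 ± 0.16 SE; limma, adjusted p = 0.251), and it passed only after scaling to the same total without short RNA genes (limma, adjusted p = 0.0146). The sum of these 5 genes was 48.7, 38.3 and 37.8 FPKM on the inhibitor, against 46.7, 49.4 and 48.0 FPKM before treatment.

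Uck2, which phosphorylates uridine and cytidine in salvage, was the pyrimidine member that fell. It was at 0.703, 0.607 and 0.901 FPKM on the inhibitor, against 10.8, 3.41 and 2.99 FPKM before treatment. Pre-treatment replicate 1 was well above the other 2 pre-treatment tumours, and all 3 on-BRAFi tumours were below 1 FPKM. It fell 5.93-fold (log2 fold change -2.57 ± 0.54 SE; limma, adjusted p = 0.0192), a call lost without any 1 on-BRAFi library or pre-treatment replicate 2 (limma, largest adjusted p 0.0783). Upp1, uridine phosphorylase, is no member but stands on the same salvage route; it fell as well, at 0.309, 2.85 and 1.76 FPKM on the inhibitor, against 24.01, 11.001 and 20.4 FPKM before treatment (limma, adjusted p = 0.0146; lost without on-BRAFi replicate 3 or pre-treatment replicate 1 or 3, up to 0.0728).

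Ribonucleotide reductase is built from a large subunit and 1 of 2 small subunits, and the large subunit and the S-phase small subunit fell. Rrm1, the large subunit, was at 10.3, 12.5 and 6.59 FPKM on the inhibitor, against 31.1, 34.1 and 35.99 FPKM before treatment. The pre-treatment values were close together and all above the on-BRAFi values, and Rrm1 fell 3.53-fold, in every alternative tried (log2 fold change -1.82 ± 0.26 SE; limma, adjusted p = 0.00485). Rrm2, the small subunit of dividing cells, was at 2.08, 6.26 and 2.01 FPKM on the inhibitor, against 18.7, 15.5 and 21.96 FPKM before treatment. On-BRAFi replicate 2 was well above the other on-BRAFi tumours and still below every pre-treatment tumour. Rrm2 fell 6.06-fold (log2 fold change -2.60 ± 0.45 SE; limma, adjusted p = 0.00967), a call lost without on-BRAFi replicate 1 or pre-treatment replicate 3 (limma, largest adjusted p 0.0557). Rrm2b, the small subunit known as a p53 target and as a supply for resting cells, was at 4.60, 4.11 and 14.5 FPKM on the inhibitor, against 8.58, 7.12 and 3.10 FPKM before treatment. The groups overlapped fully, with the highest value in on-BRAFi replicate 3 and the lowest in pre-treatment replicate 3, and its 95% interval ran from -1.20 to 1.55 (limma, adjusted p = 0.859).

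Thymidylate supply and the cleaning of the pools fell at 4 of 5 genes. Tyms, thymidylate synthase, was at 1.66, 4.36 and 1.52 FPKM on the inhibitor, against 11.4, 12.3 and 11.3 FPKM before treatment. The pre-treatment tumours lay close together, and on-BRAFi replicate 2 was again the highest of its group. Tyms fell 5.04-fold (log2 fold change -2.33 ± 0.40 SE; limma, adjusted p = 0.00982), lost without on-BRAFi replicate 1 or pre-treatment replicate 2 (limma, largest adjusted p 0.0563). Dut, which removes dUTP and so supplies dUMP, was at 2.38, 2.21 and 5.56 FPKM on the inhibitor, against 36.2, 14.9 and 20.4 FPKM before treatment. Here on-BRAFi replicate 3 was the highest of the treated tumours, at less than the lowest pre-treatment value, and Dut fell 7.02-fold (log2 fold change -2.81 ± 0.45 SE; limma, adjusted p = 0.00785; 0.0518 without on-BRAFi replicate 1). Dtymk, thymidylate kinase, was at 15.9, 22.6 and 17.2 FPKM on the inhibitor, against 48.3, 32.7 and 47.6 FPKM before treatment, and fell 2.29-fold (limma, adjusted p = 0.0141). It missed the threshold without on-BRAFi replicate 1 or 3 or pre-treatment replicate 1 or 3 (limma, largest adjusted p 0.0628) and under both same-total scalings.

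Dctpp1, Tk1 and Dut had the 3 lowest log2 fold changes of the 37 members, close to one another, and their order changed with the library left out. Dctpp1 encodes a pyrophosphatase that removes dCTP and its modified forms from the pool, and it was at 2.11, 2.83 and 2.04 FPKM on the inhibitor, against 22.8, 15.3 and 16.8 FPKM before treatment. The 3 on-BRAFi values lay close together and far below the lowest pre-treatment value. Dctpp1 fell 7.54-fold, in every alternative tried (log2 fold change -2.91 ± 0.24 SE; limma, adjusted p = 0.00112; at most 0.0147). Samhd1 degrades deoxynucleoside triphosphates and is known to restrict viruses in resting cells. It was at 22.8, 25.1 and 17.2 FPKM on the inhibitor, against 18.9, 19.8 and 29.8 FPKM before treatment, with overlapping groups and an interval from -0.65 to 0.52.

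The deoxynucleoside kinases of the cytosol fell, and those of mitochondria did not pass. Tk1, the thymidine kinase made in S phase, was at 2.50, 3.70 and 1.14 FPKM on the inhibitor, against 23.9, 10.9 and 16.1 FPKM before treatment. Every on-BRAFi tumour was below every pre-treatment tumour, and Tk1 fell 7.06-fold, in every alternative tried (log2 fold change -2.82 ± 0.47 SE, limma, adjusted p = 0.00889). With 1 library left out it came just under the threshold (limma, largest adjusted p 0.04997). Dck, deoxycytidine kinase, was at 0.791, 0.957 and 1.002 FPKM on the inhibitor, against 3.93, 3.40 and 1.94 FPKM before treatment, and fell 3.03-fold (limma, adjusted p = 0.0334), but the call was lost without any 1 on-BRAFi library or pre-treatment replicate 1 or 2 (limma, largest adjusted p 0.102) and under both same-total scalings. Tk2, the mitochondrial thymidine kinase, was at 6.81, 5.44 and 4.94 FPKM on the inhibitor, against 2.71, 4.28 and 3.27 FPKM before treatment, higher in each on-BRAFi tumour (log2 fold change 0.74 ± 0.26 SE; limma, adjusted p = 0.0942), and it passed only after scaling to the same total without short RNA genes (0.0144). Dguok, the mitochondrial deoxyguanosine kinase, was at 6.64, 8.62 and 8.02 FPKM on the inhibitor, against 8.50, 8.57 and 7.21 FPKM before treatment, and overlapped (log2 fold change -0.064 ± 0.19 SE). Tk1 exons overlap those of Afmid on the other strand; Afmid averaged 1.57 ± 0.701 FPKM on the inhibitor and 2.21 ± 0.489 FPKM before treatment, and did not pass.

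Both nucleoside diphosphate kinases, which pass phosphate between nucleotides of all kinds, fell. Nme2 had the highest mean of all members in both groups, although Hprt was above it in on-BRAFi replicate 3. It was at 80.99, 86.9 and 60.95 FPKM on the inhibitor, against 393.4, 206.1 and 312.96 FPKM before treatment, and fell 3.89-fold (log2 fold change -1.96 ± 0.28 SE; limma, adjusted p = 0.00479). Nme1 was at 8.81, 8.64 and 7.40 FPKM on the inhibitor, against 35.3, 28.3 and 20.4 FPKM before treatment, and fell 3.28-fold (log2 fold change -1.71 ± 0.24 SE; limma, adjusted p = 0.00456). Both passed in every alternative tried. Nme1 and Nme2 are close relatives and neighbours joined by an annotated read-through transcript, so the split of reads between them is uncertain; their sum was 89.8, 95.6 and 68.4 FPKM on the inhibitor, against 429, 234 and 333 FPKM before treatment. The other diphosphate kinases Nme3, Nme4, Nme6 and Nme7 were tested, and none passed.

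Ratios between isozymes within a library depend little on the scale between libraries, and 8 pairs were compared. Each ratio is log2 of FPKM + 0.1 of one gene over the other, compared by a two-sided exact permutation test, whose smallest possible p with 3 against 3 is 0.1. In 3 pairs all on-BRAFi ratios lay above all pre-treatment ratios, with exact p = 0.1 and an adjusted p of 0.267 over the 8 pairs. Among all tested genes, taken singly, the groups did not overlap in either direction for 40.4%. Tk2 over Tk1 was at 1.41, 0.54 and 2.02 on the inhibitor, against -3.09, -1.34 and -2.27 before treatment. The sign of the balance differed between the groups, the mitochondrial gene being above the cytosolic one in every on-BRAFi tumour and below it in every pre-treatment tumour. Rrm2b over Rrm2 was at 1.10, -0.60 and 2.80 on the inhibitor, against -1.12, -1.12 and -2.79 before treatment. Dguok over Dck was at 2.92, 3.05 and 2.88 on the inhibitor, against 1.09, 1.31 and 1.84 before treatment. On their own, Tk1, Rrm2 and Dck fell, and Tk2, Rrm2b and Dguok did not pass, so these ratios are not separate from those falls.

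The other 5 ratios overlapped between groups. Prps2 over Prps1 was at 2.46, 3.80 and 1.18 on the inhibitor, against -1.50, -1.40 and 1.61 before treatment (exact permutation test, p = 0.2). Pre-treatment replicate 3 had the ratio of the treated tumours. Ctps2 over Ctps differed by 0.54 (exact permutation test, p = 0.2) and Impdh1 over Impdh2 by 0.47 (p = 0.4). Adssl1 over Adss differed by 0.27 (exact permutation test, p = 0.7) and Nme2 over Nme1 by -0.25 (p = 0.6), and both changed sign without pre-treatment replicate 3.

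**Figure D3:**
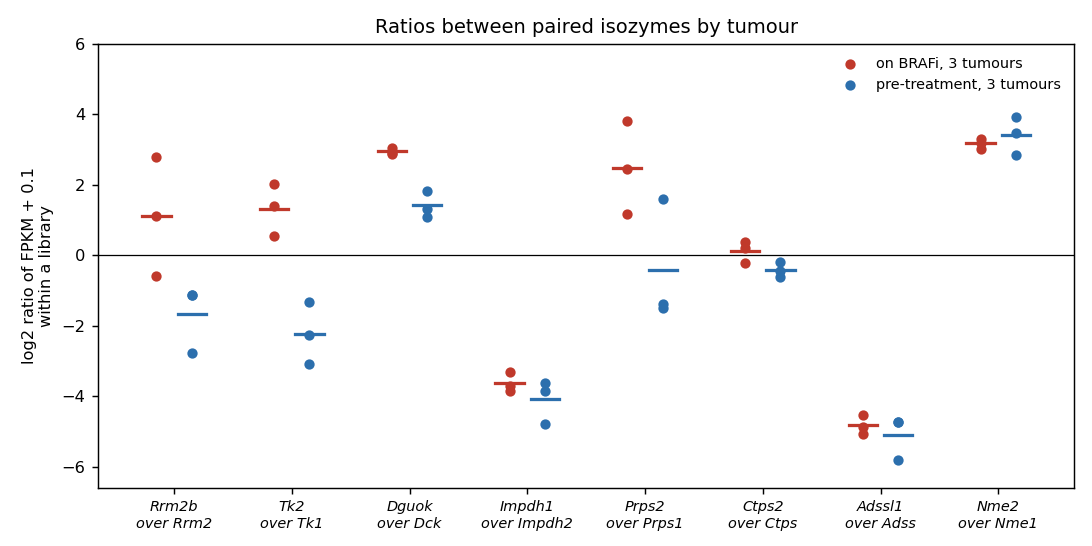
Log2 ratio of FPKM + 0.1 between paired isozymes in each tumour, with the 3 on-BRAFi tumours in red left of the 3 pre-treatment tumours in blue and a bar at each group's mean. Rrm2b over Rrm2, Tk2 over Tk1 and Dguok over Dck are higher in every on-BRAFi tumour, and the other 5 pairs overlap.

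The tumours also differed within the treated group. Of the 8 deoxynucleotide members that fell, 6 had their highest on-BRAFi value in replicate 2 and 2 in replicate 3. On-BRAFi replicate 2 also had the largest total of its group, 554684 FPKM, against 442915 FPKM in replicate 1 and 414834 FPKM in replicate 3. The share of all tested genes that were highest in replicate 2 was not counted. The 12 genes of cycling cells summed to 39.5, 57.8 and 27.7 FPKM on the inhibitor, against 342, 387 and 313 FPKM before treatment, and 11 of them were highest in on-BRAFi replicate 2 among the treated tumours. Mki67, which marks cycling cells, was at 2.87, 4.81 and 1.83 FPKM on the inhibitor, against 36.7, 53.5 and 25.7 FPKM before treatment. All 12 cycling genes fell, also when any 1 library was left out and under each scaling, and a filter at a mean of 5 FPKM kept 10, which fell. Of the 12, Bub1, Plk1 and Aurkb averaged under 1 FPKM on the inhibitor and were tested only because of their pre-treatment values. All 7 replication genes fell, 4 to 7 of them when 1 library was left out and 5 with the same total. The cycling and replication genes had median log2 fold changes of -3.32 and -2.13, beside -1.71 for the deoxynucleotide members. Of the 12 fibroblast markers, 7 rose (Col1a1, Col1a2, Col3a1, Dcn, Lum, Dpt and Postn) and the other 5, none of which passed, had log2 fold changes of 0.0084 for Fap, 0.22 for Pdgfra, 0.48 for Pdgfrb, -0.41 for Pdpn and 2.50 for Thy1. The median over all 12 was 2.72, and endothelial markers had a median of 1.71 over 9 and pericyte markers one of 1.705 over 5. Of the endothelial markers 7 rose, or 4 to 5 when 1 library was left out, and they summed to 91.1 to 139 FPKM on the inhibitor, against 39.8 to 50.2 FPKM before treatment. Of the pericyte markers 3 rose and 1 fell, with sums of 49.6 to 94.7 FPKM on the inhibitor, against 21.7 to 34.3 FPKM before treatment. The part of a changed cell mix in the members' differences was not tested.

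**Figure D4:**
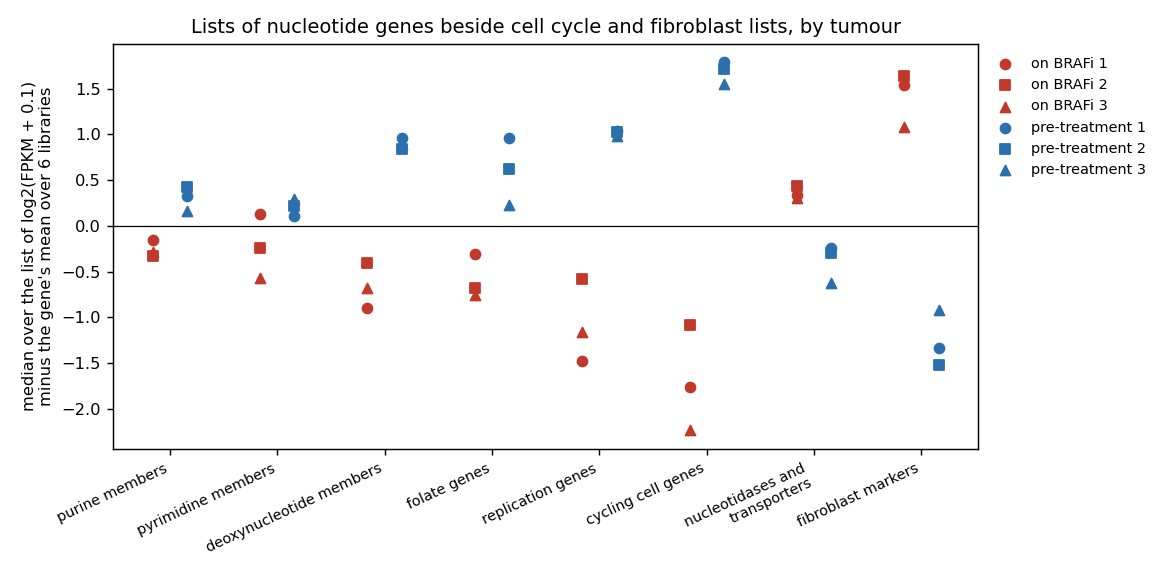
Median over each list of log2(FPKM + 0.1) minus the gene's mean over the 6 libraries, by tumour, with on-BRAFi tumours in red left of pre-treatment tumours in blue and the tumour number as the marker shape. Purine and deoxynucleotide members and folate, replication and cycling genes are low in all on-BRAFi tumours, pyrimidine members overlap, and nucleotidases and fibroblast markers are high.

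Folate enzymes, which hand the carbon units to IMP and thymidylate synthesis, fell at 5 of 11 tested genes and none rose, with a median of -1.12. Mthfd1l, of the mitochondrial formate supply, was at 2.30, 2.27 and 1.67 FPKM on the inhibitor, against 12.6, 9.04 and 9.38 FPKM before treatment (log2 fold change -2.26 ± 0.25 SE; limma, adjusted p = 0.00230). It passed whichever library was left out. Shmt2 fell too and likewise kept its call, while Mthfd1 was lost without any 1 on-BRAFi library or pre-treatment replicate 2, and Mthfd2 without any 1 library other than on-BRAFi replicate 3 (limma, largest adjusted p 0.107). Without on-BRAFi replicate 1 or 2 or pre-treatment replicate 2 the count was 3 of 11. The 5 of 11 stand against the 10.3% of all tested genes that fell.

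The other nucleotide genes, 46 tested of 62 listed, were divided in direction. Among them 6 fell and 7 rose, against 10.3% and 8.76% of all tested genes, and the median was -0.088. Among those that fell, besides Upp1, were the GMP kinase Guk1, the mitochondrial adenylate kinase relative Ak4, the dCMP deaminase Dctd and the nucleotidase Nt5c. Ak3, the GTP-dependent AMP kinase of mitochondria, rose, at 61.8, 69.3 and 56.3 FPKM on the inhibitor, against 21.98, 32.5 and 26.5 FPKM before treatment (limma, adjusted p = 0.00785). Of the nucleotidases and transporters, 12 were tested and 3 rose, Entpd1, Nt5e and Slc29a3. Entpd1, which is CD39 and removes phosphates from ATP, was at 10.9, 9.98 and 10.8 FPKM on the inhibitor, against 1.59, 1.75 and 1.91 FPKM before treatment (log2 fold change 2.53 ± 0.20 SE; limma, adjusted p = 0.000965). Nt5e, which is CD73 and turns AMP into adenosine, was at 5.90, 3.39 and 6.13 FPKM on the inhibitor, against 1.13, 0.683 and 0.952 FPKM before treatment (log2 fold change 2.34 ± 0.37 SE; limma, adjusted p = 0.00727). The groups did not overlap for either gene, and both passed whichever library was left out. Both are also known on vessel and stromal cells, whose markers were higher in the same tumours; their part was not tested. Slc29a3 is a nucleoside transporter of lysosomes. Ampd3, an AMP deaminase, and Slc25a36, a mitochondrial pyrimidine nucleotide carrier, rose as well. Of the genes named, Ak3, Entpd1 and Nt5e passed whichever library was left out, whereas Ak4 and Slc29a3 were lost without on-BRAFi replicate 1. Guk1, Nt5c and Ampd3 were each lost without on-BRAFi replicate 1 and without every pre-treatment library in turn, Nt5c also without on-BRAFi replicate 3 and Ampd3 also without replicate 2, and Dctd and Slc25a36 were lost without any 1 library (limma, largest adjusted p 0.146). Counts on this list shift with single libraries and with scale: 2 to 5 fell and 3 to 7 rose when 1 library was left out, and 13 rose and 2 fell with the same total.

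Of 7 regulators that are known to act on these genes or on cell division, 6 were tested and 3 fell, against 10.3% of all tested genes. With the same total, with or without short RNA genes, and with the replicate block, 1 of the 6 fell. When 1 library was left out, 1 to 3 fell. E2f8, a repressor of the E2F family that is made in S phase, was at 0.688, 0.955 and 0.124 FPKM on the inhibitor, against 10.04, 7.80 and 11.4 FPKM before treatment, and fell in every alternative tried (log2 fold change -4.09 ± 0.60 SE; limma, adjusted p = 0.00547). Trp53, which encodes p53, was at 16.4, 17.2 and 15.5 FPKM on the inhibitor, against 24.9, 24.04 and 25.7 FPKM before treatment (limma, adjusted p = 0.0344). Its call was lost without any 1 library other than on-BRAFi replicate 2 (limma, largest adjusted p 0.0754), and with the same total its log2 fold change was -0.059. Cdkn1a, a cell cycle inhibitor and p53 target, was at 4.03, 4.86 and 3.66 FPKM on the inhibitor, against 22.7, 7.39 and 13.4 FPKM before treatment (limma, adjusted p = 0.0321), lost without any 1 library other than pre-treatment replicate 2 (limma, largest adjusted p 0.121). Myc, known to drive many nucleotide genes through the E-box, was at 5.61, 4.43 and 4.24 FPKM on the inhibitor, against 17.6, 6.61 and 12.4 FPKM before treatment, and did not pass (log2 fold change -1.24 ± 0.37 SE; limma, adjusted p = 0.0574). It passed as lower under median of ratios scaling (limma, adjusted p = 0.0461), after quantile normalization (0.0461) and without pre-treatment replicate 2 (0.0268). E2f1 and E2f3 did not pass either, with log2 fold changes of 0.011 and -0.42.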

How the data were processed

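RNA of CD45-negative cells from 6 tumours was measured by poly(A)-selected, unstranded RNA-seq, per the labels' protocols. The authors deposited 1 table of FPKM values per gene symbol and tumour. The genome build mm9 and the tools TopHat2, TopHat, Cuffnorm and Cuffdiff are named in the submitters' processing notes, with no versions. FPKM values carry no counts, so the depth of each library is unknown and no counting interval is given. The labels name separate tumours, so p-values measure the spread between tumours. The library layout is given as both paired and single end, which was not resolved.

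Computed here were the tests and summaries. FPKM + 0.1 was put on the log2 scale without further scaling and tested with limma 3.58.1 in R 4.3.3, with a mean-variance trend and two-sided tests, over the 12075 genes with a mean of at least 1 FPKM over the 6 libraries. Of 23940 genes, 5880 were listed at 0 in every library. P-values were adjusted by Benjamini-Hochberg over all tested genes, and the threshold was 0.05. Low genes have understated fold changes on this scale. Isozyme ratios were compared by exact permutation of the 6 libraries.

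Named are all 37 members and, of the other lists (other nucleotide genes, folate, cycling, replication and regulator genes), those past the threshold with counts of the rest, and Myc, E2f1 and E2f3; results for some single genes of these lists are not reported here. The members and lists were chosen with earlier results of these data known. The roles used to order the members and the alternatives for the other lists were set after seeing the data. Alternatives were other pseudocounts, filters and scalings, a block on tumour number, and leaving out each library. Promoter windows and start sites came from RefSeq on GRCm38.p6, and exon overlaps, found for 12 of the 37 members, from GENCODE on the same assembly. Coordinates are of that assembly, not of mm9.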

Additional observations from a re-analysis of the deposited data

How the results depend on the processing

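Of the 16 members that passed, 8 passed whichever single library was left out and 5 (Rrm1, Tk1, Dctpp1, Nme1 and Nme2) passed in every alternative. Of the 21 that did not pass, 18 passed in none, and Prps2, Ctps2 and Tk2 passed only with the same total without short RNA genes. Leaving out 1 library gave 8 to 13 members lower and 0 to 1 higher, with 0 to 1 purine members higher, 0 to 1 pyrimidine members lower and 3 to 7 deoxynucleotide members lower, the 3 being without on-BRAFi replicate 1. On the other nucleotide list it gave 2 to 5 lower and 3 to 7 higher, and on the folate list 3 to 4 lower. With the same total in each library, 9 members fell, no purine member (0) fell, 2 other nucleotide genes fell, 13 rose, and 3 folate genes fell. Without short RNA genes that scaling gave 4 members higher (2 purine, 1 pyrimidine and 1 deoxynucleotide), with 3 other nucleotide genes lower and 17 higher. A filter at a mean of 5 FPKM removed Uck2 and left 0 pyrimidine members lower.

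Tumours with the same number did not deviate together more than others (correlations -0.0296, 0.0116 and -0.0896, against -0.0873 to 0.115 for different numbers). Whether tumours with the same number share more than the number is not known. With the replicate block 11 members fell, 0 rose (0 purine) and 0 pyrimidine members fell, and 2 other nucleotide genes fell and 4 rose, with 737 of all genes lower and 500 higher.

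Members that did not pass changed sign under scaling. With the same total, and then without short RNA genes, the log2 fold changes were 0.25 and 0.30 for Gart, 0.077 and 0.13 for Adsl, 0.088 and 0.14 for Impdh2, and 0.18 and 0.23 for Gmps. They were 0.34 and 0.40 for Adk, 0.29 and 0.34 for Dhodh, 0.30 and 0.35 for Ctps, 0.48 and 0.53 for Dguok, and 0.48 and 0.53 for Samhd1. Cad was at 0.015 without short RNA genes and Samhd1 at 0.026 after quantile normalization. Leaving out 1 library gave ranges of -0.11 to 0.15 for Impdh1, -0.59 to 0.27 for Dhodh, -0.40 to 0.50 for Rrm2b, -0.14 to 0.043 for Dguok and -0.18 to 0.15 for Samhd1. The same gave differences in log2 ratio of -0.090 to 0.46 for Adssl1 over Adss and -0.53 to 0.0070 for Nme2 over Nme1. No member that passed changed sign, and apart from the scaling and sample construction given here the cause was not tested. FPKM without counts does not show how precise the low members (Uck2, Dck, Adssl1, Dhodh) are.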
